A study of Mus musculus with 4 samples.

Results

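The genes described here are those that the authors' pathway annotation places under ribosome biogenesis in eukaryotes, 74 of the 16695 genes in the table. The annotation entry alone decided which genes are members, and no expression value entered that rule. Expression was measured by RNA-seq in 4T1 cells, a mouse mammary carcinoma cell line, with 2 libraries of DHODH knockout (KO) cells and 2 of wild-type (WT) cells, and the comparison asks how expression differs between the genotypes. Dhodh encodes dihydroorotate dehydrogenase, the mitochondrial enzyme of de novo pyrimidine synthesis. The sources used here name no treatment, time, guide or clone. They also leave unsaid whether replicates were grown apart, so a p-value here reflects spread among libraries that may be technical.

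Ribosomes are built in the nucleolus from a long precursor RNA that RNA polymerase I transcribes from nucleotide triphosphates. A large assembly on the precursor, the small-subunit processome, folds and cleaves the part that becomes the small (40S) subunit, and guide RNAs held in box C/D and box H/ACA particles direct its methylation and pseudouridylation. GTPases and AAA ATPases remodel the large (60S) subunit, export receptors carry both subunits through the nuclear pore, and maturation factors finish them in the cytoplasm. Tumour cells are known for high demand on this pathway.

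Of the genes in the pathway, 70 had a mean of at least 1 FPKM (fragments scaled to gene length and library size) over the 4 libraries and were tested. The 4 others were Rexo5, Nxf3, Nxf7 and 1700009N14Rik, none of them above 0.637 FPKM in any library. The tested genes averaged between 3.58 and 333 FPKM, with a median of 31.2 FPKM against 11.9 FPKM over all 10170 genes tested. A nucleolar term stood in the authors' gene ontology column for 51 of the 74 genes (68.9%), against 4.65% of all genes in the table. The pathway held 0.757% and 0.764% of the summed FPKM in KO replicates 1 and 2, and 0.880% and 0.883% in WT replicates 1 and 2.

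More of these genes were lower than higher in KO. At an adjusted p under 0.05 (limma, Benjamini-Hochberg over all tested genes), 34 of 70 were lower and 10 were higher, or 48.6% and 14.3%. Over all tested genes 29.1% were lower and 35.6% were higher, 64.7% in either direction. The median log2 fold change of the pathway, KO minus WT on the log2(FPKM + 1) scale used for every log2 fold change here, was -0.12, against 0.039 over all tested genes. The middle 50% of the pathway genes lay between -0.32 and 0.0095, and that of all tested genes between -0.22 and 0.30. Since FPKM are relative to each library, a change in RNA per cell shared by all genes would not show in them, and in bulk RNA fewer cells of a type and less RNA per cell cannot be told apart.

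**Figure D1:**
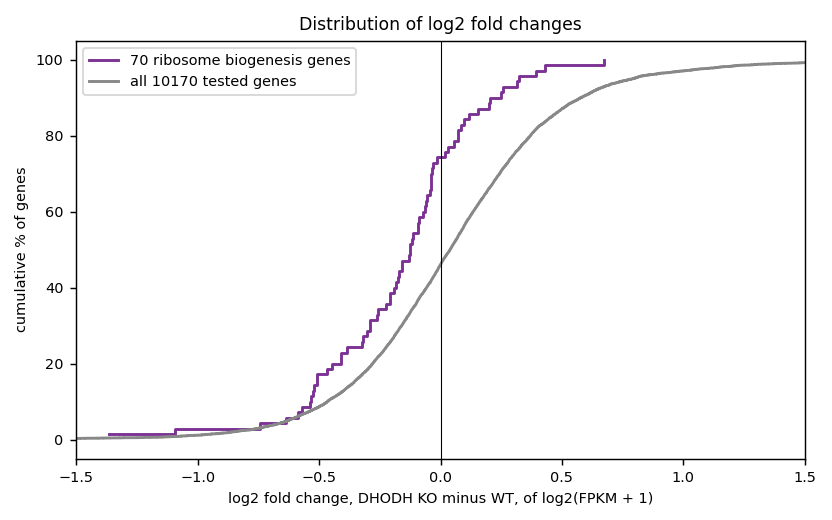
Cumulative share of genes (vertical axis, %) by log2 fold change, DHODH KO minus WT (horizontal axis), for the 70 tested ribosome biogenesis genes and all 10170 tested genes. The pathway's curve runs to the left of the other over most of its length, with medians of -0.12 and 0.039.

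Most changes were small. Of the 44 genes called, 31 had a log2 fold change smaller than 0.5 in size, and 21 of the 26 genes not called differed by less than 0.1. By at least 0.5, 12 genes were lower and 1 was higher, where the background is 8.60% lower and 12.8% higher over all tested genes. Values of the groups did not overlap for 45 genes with KO below WT and 16 with KO above, against 37.9% and 45.6% of all tested genes. The counts ranged from 30 to 37 lower and from 8 to 10 higher when each library was left out in turn, and 28 of the 34 and 8 of the 10 calls held in all of these fits.

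Relative depth, from the FPKM steps, was 1.07 in both KO libraries and 0.980 in WT replicate 2, with WT replicate 1 set to 1. Dhodh RNA averaged 9.18 ± 0.694 FPKM in KO and 10.6 ± 0.377 FPKM in WT cells (SD, n = 2 each), a log2 fold change of -0.19 ± 0.068 (SE; limma adjusted p = 0.0425). That call was lost without DHODH KO replicate 2 (adjusted p = 0.20), as it was when either WT library was left out (adjusted p = 0.170 for replicate 1 and 0.0597 for replicate 2), and RNA over the whole gene does not show the edit itself. Of the 7 epithelial markers listed, all reached 1 FPKM in every library. Of 10 heart muscle markers, 8 reached 1 FPKM in DHODH KO replicate 2, where they summed to 292 FPKM, against 199.99 FPKM in DHODH KO replicate 1 and 188 and 192 FPKM in WT cells. In those 3 libraries Tnnt2 alone reached 1 FPKM, and Myh6, Myl2, Myl3, Tnni3, Actc1 and Nppa were listed at 0. Tnnt2 made up most of each sum, at 199.9 and 208 FPKM in KO replicates 1 and 2 and 188 and 192 FPKM in WT cells. The 4 immune markers in the table also summed higher in DHODH KO replicate 2, at 3.58 FPKM against 0.0716 to 0.347 FPKM in the others. Lyz2 alone gave 3.51 FPKM of that sum, and Adgre1 stood at 0.0396 FPKM, its highest value. Cd3e was at 0 there, and Ptprc, at 0.0316 FPKM, lay below WT replicate 2 (0.0393 FPKM). The 6 fibroblast and endothelial markers summed to 5.32 FPKM in DHODH KO replicate 2, against 2.43 to 2.9998 FPKM. Pdgfra alone measured between 2.39 and 2.87 FPKM in every library. Dcn stood at 1.41 FPKM in DHODH KO replicate 2 and at no more than 0.0673 FPKM in the others. What these transcripts contribute to the pathway's values was not tested. Without DHODH KO replicate 2, 37 of the pathway genes were lower and 10 higher. By role, the number called lower was then larger in the UTP-A, box C/D and 60S maturation groups described below than with all libraries. It was also larger among the other processome and 40S factors and the RNase MRP and RNase P proteins. Among the 60S GTPases and AAA ATPases it was smaller.

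The largest decreases were in Wdr36 and Pop1. Wdr36, which encodes a WD repeat protein of the UTP-B subcomplex of the processome, measured 27.6 and 27.2 FPKM in KO replicates 1 and 2, against 71.7 and 72.3 FPKM in WT replicates 1 and 2. Its KO values lay close together and far below both WT values, at 38.03% of WT on average, and the log2 fold change was -1.36 ± 0.038 (limma adjusted p = 8.1e-07). Pop1, the gene of a core protein of the RNA-cleaving particles RNase MRP and RNase P, measured 16.5 and 16.1 FPKM in KO cells, against 35.5 and 36.2 FPKM in WT cells. KO cells held 45.4% of the WT level (log2 fold change -1.09 ± 0.045, limma adjusted p = 3.2e-06).

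Rcl1, whose yeast relative takes part in pre-rRNA cleavage, followed with 17.6 and 18.7 FPKM in KO cells and 30.2 and 31.9 FPKM in WT cells. Both KO libraries were well below both WT libraries (log2 fold change -0.75 ± 0.053, limma adjusted p = 2.9e-05). Pop7, another RNase MRP and RNase P protein gene, measured 9.52 and 11.6 FPKM in KO cells and 17.0 and 16.7 FPKM in WT cells. Its KO libraries differed more from each other than its WT libraries did, without reaching them (-0.64 ± 0.085, limma adjusted p = 5.3e-04).

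Imp4, Tcof1, Nhp2 and Emg1 completed the 8 largest decreases, with log2 fold changes from -0.59 to -0.53. Imp4, of the U3-associated Mpp10 complex, measured 24.7 and 23.0 FPKM in KO cells and 37.3 and 35.4 FPKM in WT cells. Tcof1, the gene of treacle, a nucleolar protein that also serves RNA polymerase I transcription, measured 25.1 and 24.9 FPKM in KO cells and 38.2 and 37.0 FPKM in WT cells. Nhp2 measured 122 and 128 FPKM in KO cells, against 185 and 179 FPKM in WT cells. It encodes a core protein of the box H/ACA particles. Emg1, a methyltransferase that modifies small-subunit rRNA, measured 55.6 and 57.2 FPKM in KO cells and 79.5 and 84.7 FPKM in WT cells. In none of these genes did the groups overlap, and KO cells held between 65.7% and 68.7% of the WT level.

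The largest increase was in Nxt2, a cofactor of the RNA export receptors of the NXF family, with 11.6 and 11.2 FPKM in KO cells and 6.39 and 7.15 FPKM in WT cells. It was the only pathway gene that rose by more than 0.5, to 1.68 times the WT level (0.67 ± 0.069, limma adjusted p = 1.5e-04). Rpp40, an RNase P protein gene of low expression, measured 4.66 and 4.72 FPKM in KO cells and 2.99 and 3.46 FPKM in WT cells (0.43 ± 0.084, limma adjusted p = 0.0031). Rexo2, an oligoribonuclease known mainly from mitochondria, measured 49.3 and 53.3 FPKM in KO cells and 39.0 and 38.7 FPKM in WT cells (0.39 ± 0.047, limma adjusted p = 3.3e-04). For each of these 3 genes both KO libraries stood above both WT libraries. The other risers were Utp15, Gnl2, Xrn1, Nmd3, Gtpbp4, Sbds and Utp4, with log2 fold changes from 0.32 down to 0.12.

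**Figure D2:**
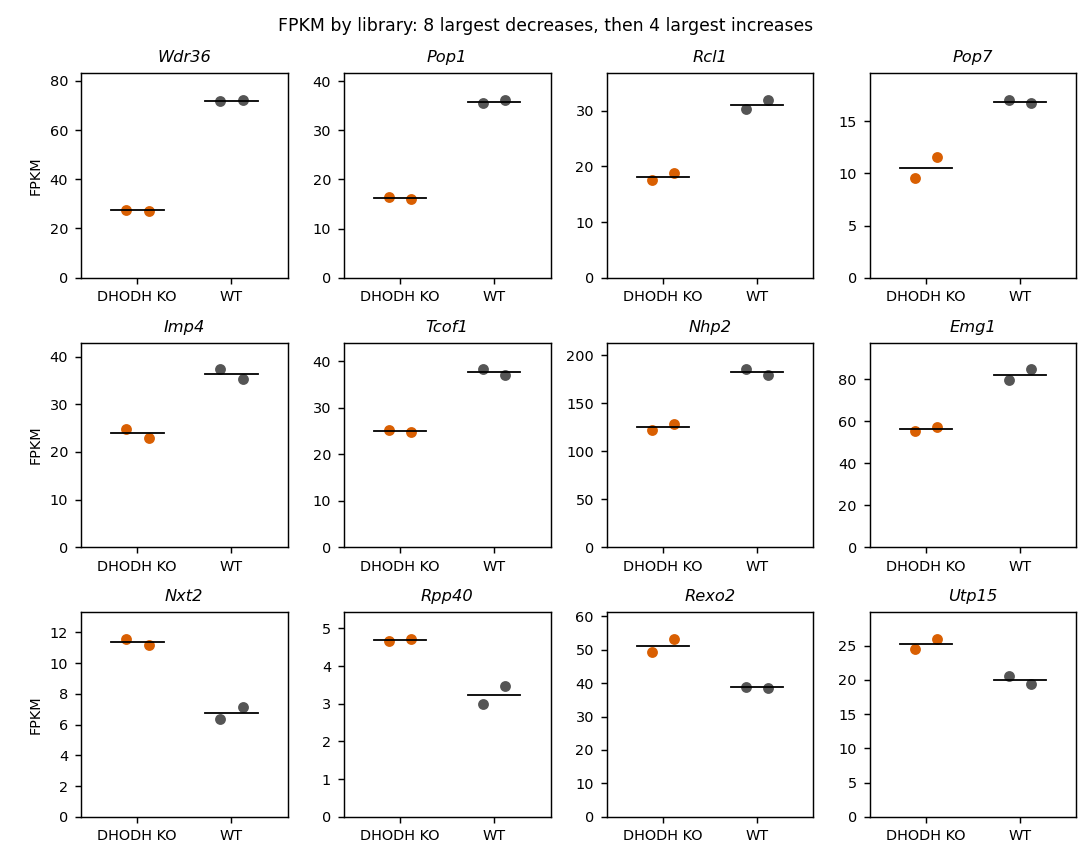
FPKM (vertical axes, from 0) in each library for the 8 pathway genes that fell most and, in the bottom row, the 4 that rose most. Points are libraries, DHODH KO left of WT and replicate 1 left of replicate 2, and lines are means. The groups do not overlap in any panel. Replicates lie furthest apart, for the gap between the groups, in Pop7, Rpp40, Rexo2 and Utp15.

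In the UTP-B subcomplex of the processome, which joins the precursor early together with the U3 particle, 5 of 6 genes fell and none rose. Beside Wdr36, Pwp2 measured 14.3 and 13.8 FPKM in KO cells and 20.9 and 20.6 FPKM in WT cells (-0.53 ± 0.048, limma adjusted p = 8.9e-05). Utp6, Wdr3 and Utp18 fell by 0.21, 0.21 and 0.19 on the log2 scale. Tbl3 went the other way without being called, at 35.3 and 35.1 FPKM in KO cells and 33.1 and 32.7 FPKM in WT cells (0.096 ± 0.040, limma adjusted p = 0.0697). Wdr36 thus had the highest FPKM of the 6 in WT cells and the lowest but 1 in KO cells, above Pwp2 alone.

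The UTP-A subcomplex, which also binds the ribosomal DNA and favours its transcription, had 2 genes higher, 1 lower and 2 not called among 5. Utp15 measured 24.5 and 26.0 FPKM in KO cells and 20.5 and 19.4 FPKM in WT cells (0.32 ± 0.053, limma adjusted p = 0.0014). Utp4, the highest of them, measured 116 and 112 FPKM in KO cells and 107 and 104 FPKM in WT cells (0.12 ± 0.037, limma adjusted p = 0.0266). Its call was lost without DHODH KO replicate 1 (adjusted p = 0.0752), without either WT library (adjusted p = 0.0621 for replicate 1 and 0.175 for replicate 2) and with median-ratio scaling (adjusted p = 0.109). Wdr43 fell slightly, to 73.0 and 70.9 FPKM in KO cells against 81.1 and 81.1 FPKM in WT cells (-0.17 ± 0.036, limma adjusted p = 0.0048). Heatr1 and Wdr75, with log2 fold changes of -0.12 and -0.095, were not called, but both were called lower with median-ratio scaling and with voom on recovered reads. The balance of this group turned with them, to 3 lower and 1 higher with median-ratio scaling and 3 lower and 2 higher with voom.

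Of the UTP-C group, the processome genes Rrp7a and Nol6 fell while the casein kinase 2 genes, whose products have many roles outside ribosome assembly, were not called. Rrp7a measured 32.4 and 30.7 FPKM in KO cells and 44.8 and 45.8 FPKM in WT cells (-0.51 ± 0.044, limma adjusted p = 7.1e-05). Nol6 fell by 0.41 on the log2 scale. Csnk2b was the most abundant of the group, at 74.99 and 74.7 FPKM in KO cells and 68.5 and 72.9 FPKM in WT cells (0.083 ± 0.042, limma adjusted p = 0.120), and Csnk2a1 and Csnk2a2 had log2 fold changes of -0.039 and -0.093. With median-ratio scaling and with voom on recovered reads Csnk2a2 was called lower too, which gave 3 genes lower in the UTP-C group. In the Mpp10 complex only Imp4 was called. Imp3 measured 41.3 and 44.9 FPKM in KO cells and 41.7 and 43.4 FPKM in WT cells, so that the groups overlapped, and its small difference changed sign between scalings. Mphosph10 had a log2 fold change of -0.043 ± 0.041.

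The pathway holds 4 core protein genes of each of the box H/ACA and box C/D particles. All 4 genes of the box H/ACA particle, which converts uridine to pseudouridine in rRNA and also takes part in telomerase, were lower in KO. Nhp2 has been given above, and Dkc1, the pseudouridine synthase itself, measured 49.8 and 51.4 FPKM in KO cells and 69.2 and 69.4 FPKM in WT cells (-0.45 ± 0.038, limma adjusted p = 6.2e-05). Nop10 and Gar1 fell by 0.32 and 0.26 on the log2 scale, Nop10 with the wider scatter, at 62.4 and 75.1 FPKM in KO cells and 81.6 and 90.1 FPKM in WT cells. Of the box C/D particle only fibrillarin, the rRNA methyltransferase encoded by Fbl, was called. It measured 142 and 137 FPKM in KO cells and 171 and 171 FPKM in WT cells (-0.29 ± 0.035, limma adjusted p = 3.1e-04). The scaffold genes Nop56 and Nop58 had log2 fold changes of -0.013 ± 0.035 and 0.057 ± 0.038, and Snu13 of -0.062 ± 0.051. Whether the particles differ was not tested.

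Among 12 other factors of the processome and the 40S subunit, 7 fell and none rose. Besides Rcl1, Tcof1 and Emg1, these were Bms1, a GTPase gene, Utp14a, Fcf1 and Nat10, an RNA acetyltransferase gene, with log2 fold changes from -0.41 to -0.29. Bms1 measured 28.2 and 27.5 FPKM in KO cells and 36.7 and 37.9 FPKM in WT cells. Fcf1, a nuclease gene and the most abundant of the 12, measured 68.1 and 71.9 FPKM in KO cells, against 82.2 and 93.9 FPKM in WT cells (-0.32 ± 0.064, limma adjusted p = 0.0034). The genes of late cytoplasmic 40S maturation, the nuclease Nob1 and the kinases Riok1 and Riok2, had log2 fold changes of -0.033, -0.029 and 0.072 and were not called. Ak6 (-0.13) and Utp14b (-0.073) were not called either. Both share exon sequence on the same strand with another coding gene in GENCODE M21, Taf9 and Acsl3, so their reads may be divided. A further 14 genes of the pathway overlap a coding gene on the opposite strand, among them Nhp2, Dkc1, Emg1, Fcf1, Rrp7a, Wdr3, Gnl2 and Gnl3, and the use of strand in counting is unknown here.

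The pathway's genes of the large subunit went both ways. Over all tested genes both directions were common too, with 29.1% lower and 35.6% higher. The further 60S list given below had 36 of 59 genes lower and 9 higher. Of 9 GTPase and AAA ATPase genes, 5 fell and 2 rose. Efl1, the GTPase that releases EIF6 from the 60S subunit, measured 6.66 and 6.92 FPKM in KO cells and 9.90 and 10.3 FPKM in WT cells (-0.51 ± 0.060, limma adjusted p = 2.9e-04), and Mdn1, the giant ATPase midasin, 11.4 and 10.2 FPKM in KO cells and 14.9 and 15.8 FPKM in WT cells. Gnl3, which encodes nucleostemin, fell by 0.22 on the log2 scale to 70.2 and 69.3 FPKM in KO cells, against 82.4 and 80.9 FPKM in WT cells. The GTPase genes Gnl2 and Gtpbp4 rose. Gnl2 measured 29.0 and 27.3 FPKM in KO cells and 21.8 and 23.1 FPKM in WT cells (0.32 ± 0.053, limma adjusted p = 0.0015). Gtpbp4 measured 51.1 and 54.8 FPKM in KO cells and 45.5 and 46.1 FPKM in WT cells (0.21 ± 0.045, limma adjusted p = 0.0057). Gnl3l, a relative of Gnl3, fell by 0.11 at a limma adjusted p of 0.0498, a call lost when any library was left out (adjusted p from 0.0632 to 0.201). The ATPase genes Nvl and Spata5 were not called (-0.056 and -0.060). Lsg1 fell by 0.17, a call lost without DHODH KO replicate 2 (adjusted p = 0.0810) and without WT replicate 2 (adjusted p = 0.1004).

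Of 6 tested genes grouped as maturation factors of the 60S subunit, 3 rose and 1 fell. Among the 3, Rexo2 is known mainly from mitochondria, as said above, so it is no clear 60S factor. Beside Rexo2, the export adaptor gene Nmd3 rose to 68.0 and 68.7 FPKM in KO cells, against 57.6 and 57.1 FPKM in WT cells (0.25 ± 0.036, limma adjusted p = 7.5e-04). Sbds, whose product works with EFL1, rose by 0.20 on the log2 scale. Rbm28 fell to 20.2 and 18.8 FPKM in KO cells, against 23.9 and 24.5 FPKM in WT cells (-0.30 ± 0.051, limma adjusted p = 0.0017). Eif6, which keeps the subunits apart until maturation is complete, measured 122 and 133 FPKM in KO cells and 136 and 142 FPKM in WT cells, a log2 fold change of -0.13 that missed the threshold (limma adjusted p = 0.0601). Rexo1 was not called either, at -0.16 (limma adjusted p = 0.0656). With median-ratio scaling and with voom on recovered reads both Eif6 and Rexo1 were called lower, which gave 3 genes lower and 3 higher in this group, and with TPM scaling or the replicate number as a block 2 were lower.

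Of 5 tested genes of nuclear export, Ran and Xpo1 fell and Nxt2 rose. Ran, the GTPase that sets the direction of nuclear transport and the most abundant gene of the pathway, measured 263 and 284 FPKM in KO cells and 390.4 and 393 FPKM in WT cells (-0.52 ± 0.042, limma adjusted p = 5.3e-05). Xpo1, the export receptor that carries both ribosomal subunits, fell by 0.12, a call lost without DHODH KO replicate 1 (adjusted p = 0.0969) and without either WT library (adjusted p = 0.0950 for replicate 1 and 0.136 for replicate 2). Nxf1 (0.032) and Nxt1 (0.15) were not called, and the Nxt1 values overlapped, at 20.4 and 24.5 FPKM in KO cells and 19.3 and 20.7 FPKM in WT cells. Nxt1 was called higher without DHODH KO replicate 1 and with the replicate number as a block, and without DHODH KO replicate 1 the group had 2 genes higher and 1 lower.

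The proteins of RNase MRP, which cuts the rRNA precursor, and RNase P, which trims tRNA, are largely shared, and of 8 genes 4 fell and 1 rose. Pop4 and Rpp30 fell by 0.26 and 0.19 on the log2 scale, beside Pop1 and Pop7. The Pop4 call was lost without WT replicate 1 (adjusted p = 0.0622), and that of Rpp30 without DHODH KO replicate 1 (adjusted p = 0.0507) and without WT replicate 1 (adjusted p = 0.120). Pop5, Rpp38 and Rpp25l were not called, with log2 fold changes from -0.089 to 0.072. Pop1 was the highest of the 8 in WT cells, and in KO cells Rpp30, at 23.3 and 24.0 FPKM, stood above it. Of the ribonuclease genes, Drosha, better known from microRNA processing, fell by 0.16, a call lost without WT replicate 2 (adjusted p = 0.0887). Xrn1, the 5′ to 3′ exonuclease of cytoplasmic RNA decay, rose by 0.26 (lost without DHODH KO replicate 1, adjusted p = 0.0900, and without WT replicate 1, adjusted p = 0.0582), and its nuclear relative Xrn2 was not called (-0.041 ± 0.048).

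**Figure D3:**
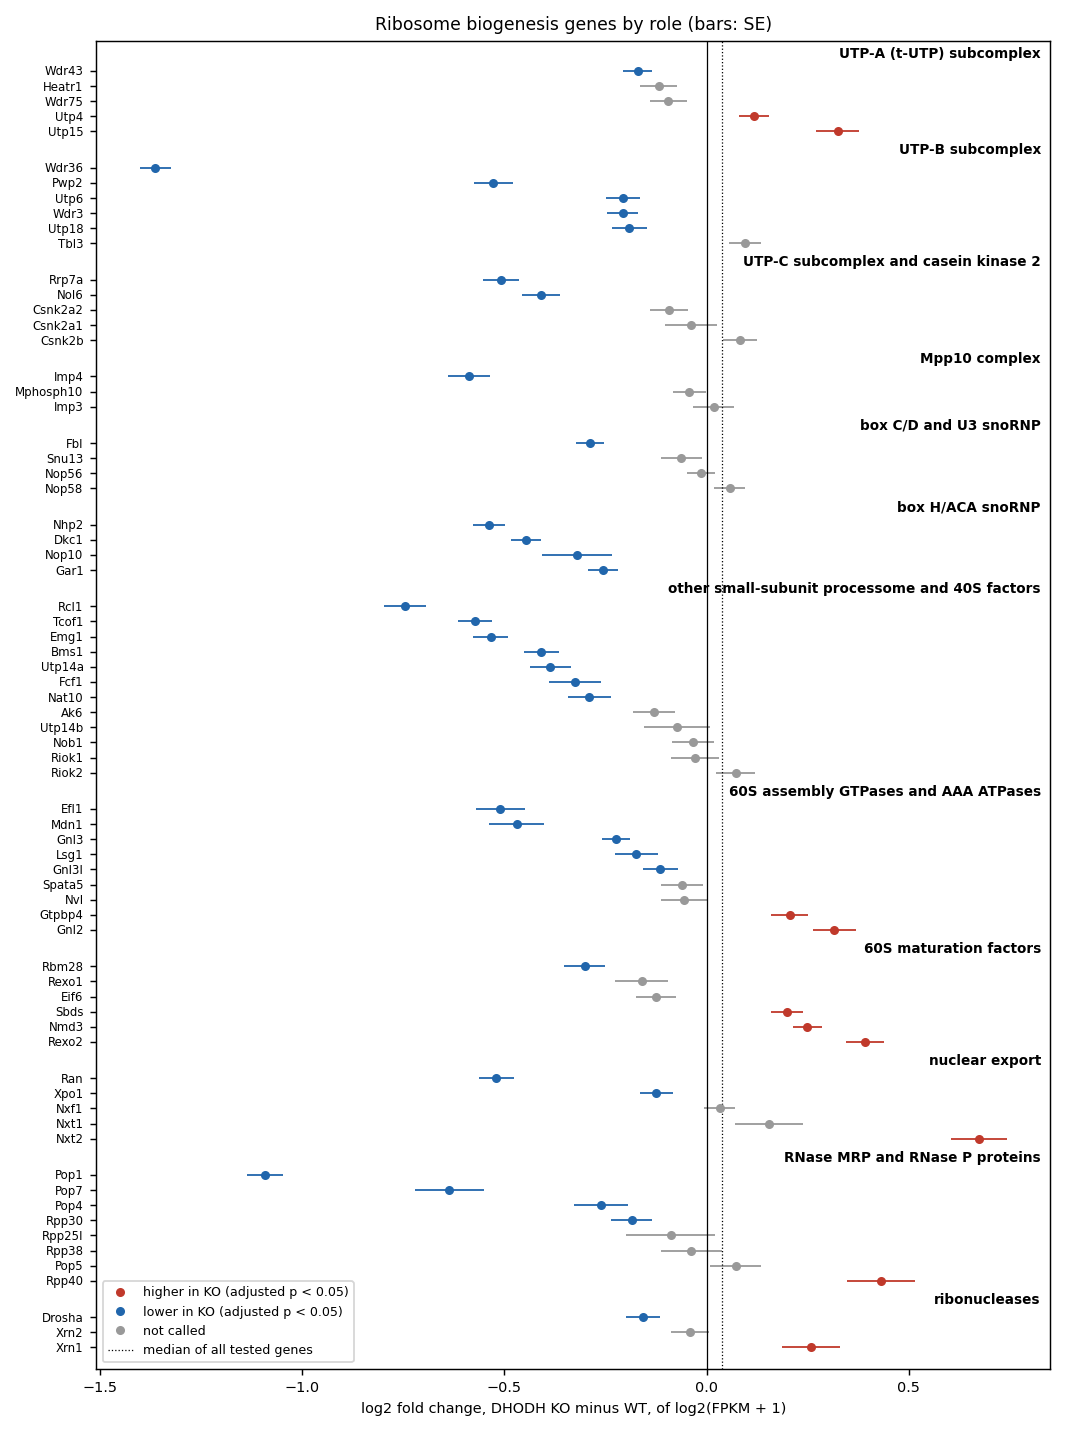
Log2 fold change, DHODH KO minus WT (horizontal axis), of the 70 tested genes, ordered by role. Points are estimates from 2 libraries per genotype, bars are SE, colours mark calls at an adjusted p under 0.05, and the dotted line is the median of all tested genes, 0.039. The 4 box H/ACA genes and 5 of 6 UTP-B genes lie to the left of 0, and the 60S groups spread to both sides.

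Promoters were set beside these values because genes of this pathway are textbook targets of MYC, which binds the E-box. The window from 250 bases before to 50 after the annotated start was given by RefSeq (GRCm38.p6) for 61 of the 74 genes, 58 of them tested. Among the genes without a window were the largest decreases, Wdr36 and Pop1, as well as Tcof1, Gnl2 and Sbds, so the shares below leave them out. The letters CACGTG, the same on both strands, stood in the windows of 12 of the 58 genes (20.7%), against 12.4% of the 8268 tested genes with a window and 8.09% of all 27025 genes of the table. They stood in 6 of 26 genes that fell (23.1%), in 3 of 8 that rose (37.5%) and in 3 of 24 not called (12.5%). The ETS motif letters CCGGAAG, searched on both strands, stood in 21 of the 58 genes (36.2%) and in 22.6% of the tested genes and 9.93% of all genes of the table. These counts are descriptions, and a match is not a bound site. The windows of the genes with this E-box and a single annotated window that fell most (Imp4, Ran) and rose most (Rexo2, Nmd3) are printed below. They run 5′ to 3′ along the gene, with the E-box in capitals. These genes were picked by their fold changes, and whether the letters go with a direction of change was not tested.
Imp4, chr1:34439579-34439878, plus strand: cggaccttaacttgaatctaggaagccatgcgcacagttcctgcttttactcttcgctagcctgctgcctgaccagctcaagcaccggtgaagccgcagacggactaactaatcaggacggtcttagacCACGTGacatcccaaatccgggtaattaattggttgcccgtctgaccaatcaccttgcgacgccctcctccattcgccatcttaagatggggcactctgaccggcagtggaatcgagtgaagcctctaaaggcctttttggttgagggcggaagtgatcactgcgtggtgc
Ran, chr5:129019906-129020205, plus strand: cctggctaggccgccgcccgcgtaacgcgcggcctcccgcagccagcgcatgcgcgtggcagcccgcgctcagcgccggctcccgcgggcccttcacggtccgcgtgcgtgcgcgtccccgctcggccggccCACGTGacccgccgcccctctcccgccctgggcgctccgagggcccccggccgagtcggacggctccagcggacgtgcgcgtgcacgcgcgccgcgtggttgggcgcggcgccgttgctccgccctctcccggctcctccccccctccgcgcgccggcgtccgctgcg
Rexo2, chr9:48480562-48480861, minus strand: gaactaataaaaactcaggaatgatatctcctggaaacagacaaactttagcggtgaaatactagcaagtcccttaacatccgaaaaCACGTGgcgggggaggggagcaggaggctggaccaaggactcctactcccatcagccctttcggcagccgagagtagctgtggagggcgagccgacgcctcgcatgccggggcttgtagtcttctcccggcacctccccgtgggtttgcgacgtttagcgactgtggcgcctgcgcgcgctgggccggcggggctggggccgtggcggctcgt
Nmd3, chr3:69721805-69722104, plus strand: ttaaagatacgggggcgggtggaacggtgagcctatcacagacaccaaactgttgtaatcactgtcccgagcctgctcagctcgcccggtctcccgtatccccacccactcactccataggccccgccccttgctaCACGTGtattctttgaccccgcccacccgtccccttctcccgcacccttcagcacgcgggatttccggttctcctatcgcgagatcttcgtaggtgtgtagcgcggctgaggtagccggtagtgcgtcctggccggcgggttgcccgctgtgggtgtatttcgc
Counted from the gene's start, the E-box began at -121 in Imp4, -118 in Ran, -163 in Rexo2 and -114 in Nmd3. None of the 4 windows held the ETS letters.

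Genes of the same process that the annotation entry leaves out were set in 4 further lists. Of 59 genes listed as further 60S assembly factors, 36 were lower (61.0%) and 9 higher (15.3%), with a median log2 fold change of -0.19. Npm1, the nucleolar chaperone, Ddx21 and Ddx24 had the smallest adjusted p of the list. Ddx21, an RNA helicase gene, measured 77.7 and 75.6 FPKM in KO cells, against 128 and 128 FPKM in WT cells, and Ddx24, another, 57.6 and 57.3 FPKM in KO cells, against 92.3 and 90.1 FPKM in WT cells. Npm1 held 55.5% of its WT level.

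Of 44 genes in the list of further processome and 40S factors, 29 were lower (65.9%) and 5 higher (11.4%), with a median of -0.22. Nol10, Rrp12 and Nop9 led this list, at 59.1%, 54.2% and 56.0% of the WT level. Of 18 genes of RNA polymerase I, 14 were lower (77.8%) and only Polr2k, a subunit shared by the RNA polymerases, was higher, with a median of -0.23. Polr2k measured 39.3 and 38.9 FPKM in KO cells and 25.7 and 29.6 FPKM in WT cells, and the initiation factor genes Taf1d and Taf1a fell by 0.71 and 0.61 on the log2 scale. Without DHODH KO replicate 2 the lists had 35, 28 and 12 genes lower and 7, 5 and 1 higher, in the order given. In each of these lists fewer genes were called lower when either WT library was left out. The 60S and processome lists had the fewest without WT replicate 2, and the RNA polymerase I list without WT replicate 1. Without WT replicate 2 the medians were -0.19, -0.22 and -0.24.

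The RNA exosome, which trims the ends of rRNA precursors, had 6 of 15 genes lower and 5 higher, with a median of 0.046. Its nuclease gene Dis3 was much lower, at 20.0 and 19.7 FPKM in KO cells against 36.9 and 36.3 FPKM in WT cells (-0.85 ± 0.043, limma adjusted p = 6.9e-06), and Exosc1 and Isg20l2, a gene of an exonuclease, fell by 0.47 and 0.50 on the log2 scale. Exosc10, another exosome nuclease gene, chosen with its value in view, had a log2 fold change of 0.35 ± 0.046 (limma adjusted p = 4.6e-04). Without WT replicate 1 only 2 genes of this list were higher, and 3 were with median-ratio scaling or voom on recovered reads. No list was tested against the rest of the genes, so the shares are set beside those of all tested genes only as a description.

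**Figure D4:**
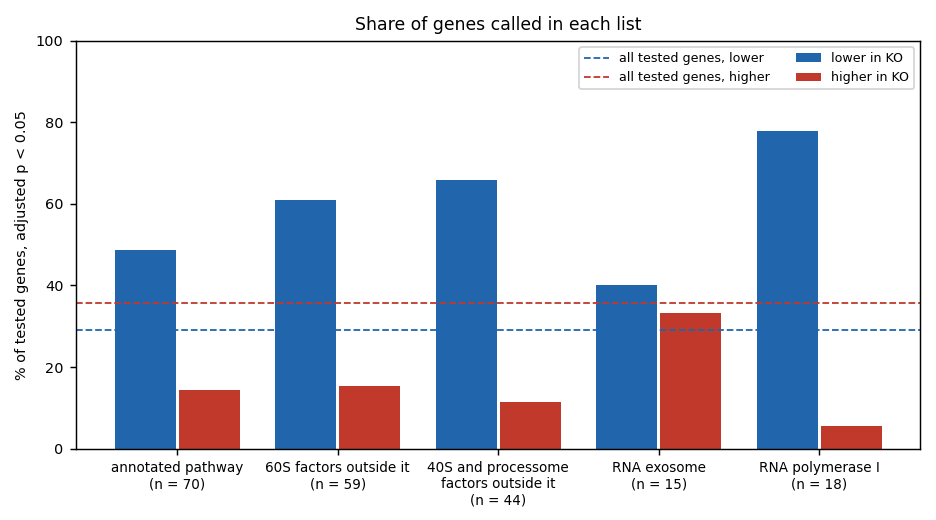
Share of tested genes (vertical axis, %) called lower (left bars) and higher (right bars) in DHODH KO at an adjusted p under 0.05, for the annotated pathway and 4 further lists. Dashed lines are the shares of all tested genes, 29.1% lower and 35.6% higher. The bars for lower genes stand above the dashed line in every list. The RNA polymerase I bar, at 77.8%, rests on 18 genes, of which 14 were lower with all libraries and 10 without WT replicate 1.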

How the data were processed

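Per the labels' protocols, RNA was taken up in TRIzol and made into Illumina libraries. The authors deposited 1 table of FPKM values, with 2 DHODH KO and 2 WT columns matched to samples by name. Tools named in the submitters' processing notes are fastp and HTSeq, and the build is GRCm39. Their versions, the aligner, the annotation and strandedness were not given in the sources used here. Genes that overlap on opposite strands could therefore share reads. In GENCODE M21, 16 of the 70 tested genes have an exon that overlaps another coding gene, 2 of them on the same strand.

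Genes with a mean of at least 1 FPKM (10170) were tested with limma 3.58.1 in R 4.3.3 on log2(FPKM + 1), with a mean-variance trend, without covariates, two-sided, KO against WT, with Benjamini-Hochberg adjustment over all of them. The log2 scale with a pseudocount of 1 understates changes of low genes. Percentages of the WT level are ratios of mean FPKM, and errors of means are SD with n = 2. The fit was also run on simulated data with known changes, few genes changed and independent noise. In the real data 64.7% of tested genes were called, so that run gives no error rate for the calls here. Whole reads could be recovered from the FPKM steps for 16424 genes (98.4%, tolerance 0.002 of a read), summing to 26103002 and 26060018 in the KO and 24075212 and 23554854 in the WT libraries. Of the tested pathway genes with recovered reads, the lowest value in a library was 235 reads and the median 3562. How much of the spread between libraries is counting error was not tested. Python 3.11.15 with pandas 2.3.3 and Matplotlib 3.10.9 made tables and figures.

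Membership followed the annotation entry, but the pathway itself, its role groups and the further lists were taken up with earlier results of these data known, so their direction is no independent evidence. Named were Dhodh, the most abundant gene, largest increase and largest decrease called in each role group, the 8 largest increases and decreases of the pathway, and the 3 called genes with the smallest adjusted p of each further list. Other pathway genes appear to complete their group. Alternatives were other pseudocounts, filters, scalings and variance models, voom on recovered reads, a replicate block, limma's treat and each library left out. Counts of role groups and lists without a library were added after seeing the data.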

Additional observations from a re-analysis of the deposited data

How the results depend on the processing

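Over 13 alternatives none of the 44 called genes changed direction. Leaving aside treat, which asks for a change beyond 0.25 on the log2 scale, 26 of the 34 lower and 8 of the 10 higher calls held under every alternative that could be run for the gene (Ran had no recovered reads, and Rpp40 was not tested at a mean of at least 5 FPKM). With treat, 16 genes were lower and 2 higher. The number higher by at least 0.5 was 2, not 1, with a pseudocount of 0.1, with voom, and without WT replicate 2, and 1 when each other library was left out. The pathway median was -0.166 with median-ratio scaling, -0.1504 with voom, and between -0.137 and -0.097 with each library left out. With the replicate number as a block (replicate block), 35 genes were lower and 11 higher. Replicates of the same number deviated together with a correlation of 0.046 across genes, and the labels do not say that numbers mark a shared batch, so they were not taken as pairs. The difference of Imp3, not called and 0.017 as reported, was negative with median-ratio scaling (-0.023) and voom (-0.0064), and lay between -0.042 (without DHODH KO replicate 2) and 0.077 with each library left out, also negative without WT replicate 1 (-0.012). Of 542 values of the 42 named genes under alternatives, 502 kept direction and call, 31 lost the call, 5, all of Eif6, gained it, and 4, those of Imp3, changed sign. The cause was not tested. With 2 libraries per genotype, the smallest difference called in the pathway was 0.11.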
